A study of Mus musculus with 6 samples.

Results

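The progesterone receptor gene Pgr and 7 genes described as its targets in ovulation were examined for binding of the transcription factor RUNX1 in mouse granulosa cells, the hormone-responsive lining of the ovarian follicle. The 8 genes were Pgr, Zbtb16, Pparg, Edn2, Prkg2, Snap25, Il6 and Cited4. They are 8 of the 21896 protein-coding genes of the annotation and were chosen for their known place in ovulation, with earlier results of these data known. A chromatin immunoprecipitation (ChIP) peak was assigned to a gene when its summit lay inside the RefSeq gene body or within 50 kb of either end. Of the peaks in the lists, 86 met this rule.

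Mice of the strain CBA x C57BL/6 F1, 21 days old, were primed with 5 IU of equine chorionic gonadotropin (eCG) to grow follicles. A dose of 5 IU of human chorionic gonadotropin (hCG) followed after 46 h, which acts in place of the luteinising hormone surge. The peri-ovulatory group held 2 RUNX1 ChIP libraries of cells taken 6 h after hCG, and the pre-ovulatory group held 2 libraries labelled 0 h after hCG. Each time point had 1 pooled input library, which entered here only through the peak calls. The treatment label does not differ between samples and mentions cells of 6 h alone, so membership of the 0 h group was taken from the title and time point labels. Nothing in the labels says that replicate libraries came from separate animals, so the spread between them may be technical. Peak lists hold no measure of RNA, and the cell type was not checked against marker expression.

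The progesterone receptor is a nuclear receptor that granulosa cells of the preovulatory follicle make in response to the luteinising hormone surge. Mice without it form mature follicles that fail to rupture, which is why the genes it controls are studied as effectors of ovulation. RUNX1 is a DNA-binding factor that acts with the subunit CBFB and recognises a core motif, TGTGGT. The title of the series names RUNX1 contacts with chromatin before and around ovulation as its subject, and the comparison here asks where RUNX1 sat around these 8 genes before and after hCG.

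The 0 h lists held 948 peaks (replicate 1) and 3135 peaks (replicate 2), and the 6 h lists 18761 and 28671. The genome-wide background recovered from the peaks, which in MACS2 follows the number and length of the fragments used, lay between 2.13 and 2.77 reads per position and was lowest in the library with the longest list. At that background a peak needed a pileup of at least 18 and 17 reads to be called in 0 h replicates 1 and 2, and at least 18 and 16 in 6 h replicates 1 and 2. Where the local background was higher, more reads were needed, so a position without a peak is not shown to be free of RUNX1. Fold enrichment, as used below, is the authors' ratio of ChIP signal to local background at a peak's summit. It ranks peaks within a list, given as a percentile of the list, and is not on a common scale across lists.

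Promoter sequence was available from RefSeq (GRCm38.p6) for 5 of the 8 genes, in 7 windows of 300 bases that run from 250 bases before a transcript start to 50 after it. Zbtb16, Prkg2 and Snap25 had no entry. Peaks of both 6 h libraries overlapped part or all of 2 of the 7 windows, the Cited4 promoter and the middle of the Pparg promoters, and no 0 h peak overlapped any of them. The share of all promoter windows that a peak overlapped was not counted, so whether these counts are usual was not tested. Of the 300 bases, the peaks of 6 h replicates 1 and 2 overlapped 190 and 300 at Cited4 and 182 and 91 at Pparg. At both, the summit of replicate 1 lay in the window and that of replicate 2 outside it. These 2 are shown because of this overlap, that of Il6 because a peak of 1 library began just past it, that of Pgr because its replicated sites lay on either side of it at a distance, and that of Edn2 because it held the RUNX letters. Each is given as the 250 bases before the start, on the plus strand, which is the strand of the gene, with searched motifs in capitals.
Cited4, chr4:120666313-120666562: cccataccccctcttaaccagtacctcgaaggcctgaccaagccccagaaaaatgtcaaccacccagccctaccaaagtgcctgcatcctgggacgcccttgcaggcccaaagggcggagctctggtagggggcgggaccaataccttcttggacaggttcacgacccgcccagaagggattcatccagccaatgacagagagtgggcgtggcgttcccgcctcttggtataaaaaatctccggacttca
Pparg, chr6:115362099-115362348: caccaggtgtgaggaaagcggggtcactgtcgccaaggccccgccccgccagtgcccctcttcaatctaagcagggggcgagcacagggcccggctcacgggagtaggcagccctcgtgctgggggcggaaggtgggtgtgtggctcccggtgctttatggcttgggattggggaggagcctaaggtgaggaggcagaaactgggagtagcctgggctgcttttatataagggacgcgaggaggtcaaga
Pgr, chr9:8899583-8899832: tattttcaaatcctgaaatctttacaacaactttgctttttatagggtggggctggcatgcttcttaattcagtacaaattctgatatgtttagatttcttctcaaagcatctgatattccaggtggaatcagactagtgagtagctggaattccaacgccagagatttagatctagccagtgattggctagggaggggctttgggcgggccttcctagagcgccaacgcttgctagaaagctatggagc
Il6, chr5:30012864-30013113: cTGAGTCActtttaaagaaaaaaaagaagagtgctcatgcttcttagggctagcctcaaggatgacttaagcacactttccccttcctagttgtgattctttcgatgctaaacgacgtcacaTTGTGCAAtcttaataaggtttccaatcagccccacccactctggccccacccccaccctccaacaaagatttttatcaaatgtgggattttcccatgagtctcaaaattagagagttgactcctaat
Edn2, chr4:120160956-120161205: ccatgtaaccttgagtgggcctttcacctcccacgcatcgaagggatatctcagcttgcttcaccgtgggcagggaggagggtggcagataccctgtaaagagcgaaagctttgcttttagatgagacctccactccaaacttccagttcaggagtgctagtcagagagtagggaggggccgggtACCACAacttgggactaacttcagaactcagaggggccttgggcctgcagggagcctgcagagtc
The motifs searched, on both strands of the 300 bases, were RUNX (TGTGGT), the progesterone receptor element (GNACA and TGTNC, set 3 bases apart), AP-1 (TGANTCA), NR5A (CAAGGTCA) and C/EBP (TTGCNNAA). The RUNX letters occurred in 1 of the 7 windows, that of Edn2, as ACCACA at positions -65 to -60 from the start, and in 16.8% of the 32851 promoter windows of the genome. Neither of the windows that a RUNX1 peak overlapped held the RUNX letters, and the rest of those peaks was not searched. The window of Il6 held AP-1 letters at positions -249 to -243 and C/EBP letters at positions -128 to -121. C/EBP letters also occurred in the last of the Pparg windows, not printed here, at positions -215 to -208 and -16 to -9. AP-1 letters were thus in 1 of the 7 windows and in 7.81% of all windows, and C/EBP letters in 2 of the 7 and in 10.8%. The progesterone receptor element occurred in 0 of the 7 windows and in 0.475% of all windows, and the NR5A letters in 0 of 7 and in 1.56%. A match or its absence describes these letters in these windows only.

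RUNX1 peaks at the 8 genes numbered 3 and 7 in the 0 h libraries, replicate 1 first, and 30 and 46 in the 6 h libraries. Pairs of values below keep that order. Both 6 h libraries lay above both 0 h libraries. The 0 h mean was 5 ± 2.83 peaks and the 6 h mean 38 ± 11.3 peaks (SD over 2 libraries), or 7.6 times as many. On the scale of log2(peaks + 1) the difference was 2.75 (exact permutation test, two-sided, p = 0.333), and 2 libraries against 2 cannot give a smaller p. The lists as a whole grew too, and the 8 genes took 0.316% and 0.223% of the 0 h lists and 0.16% of each 6 h list. The difference in mean share, 6 h minus 0 h, was −0.11 percentage points (exact permutation test, two-sided, p = 0.333). Without Zbtb16 the difference in share was 0.00144 and with equal numbers of peaks it was 0.211, so its sign depended on that gene and on the length of the lists.

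**Figure D1:**
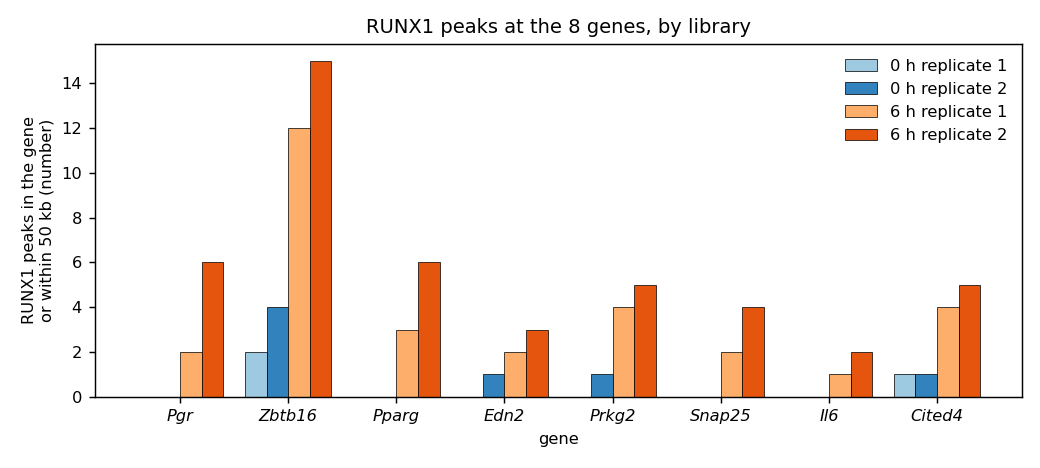
Number of RUNX1 peaks (vertical axis) inside each gene or within 50 kb of it (horizontal axis), with 1 bar per library. In each of the 8 genes both 6 h bars stand above both 0 h bars, as they would for 64.6% of all protein-coding genes, and Zbtb16 has the most peaks in every library.

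Every one of the 8 genes had at least 1 peak in both 6 h libraries, where 69.3% and 76.1% of all protein-coding genes did. Both 6 h libraries had more peaks than either 0 h library at 8 of 8 genes, against 64.6% of all genes. At 0 h, 2 of the 8 had a peak in replicate 1 and 4 in replicate 2, against 9.43% and 28.2% of all genes. Merging peaks that shared at least 1 bp gave 47 sites at the 8 genes. A site is called replicated here when both libraries of a time point had a peak in it. At 6 h, 8 of 8 genes had a replicated site, against 68.8% of all genes, and 6 of 8 did within 10 kb, against 53.1%. At least 3 replicated 6 h sites were found at 4 of the 8 genes (Zbtb16, Prkg2, Pparg and Cited4), against 34.3% of all genes. A replicated 6 h site and no 0 h peak in the window was the state of 4 of 8 genes, against 40.3%. At 0 h, 2 of 8 genes had a replicated site, against 8.76%. The gene windows of the 8 were longer than usual, with a median of 169351 bp against 117149 bp, and they held 2.04 replicated 6 h sites per 100 kb against 1.44 over the windows of all protein-coding genes. Without Zbtb16 the other 7 held 1.56 per 100 kb. These counts describe the 8 genes, which were not drawn at random, and were not tested.

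Of the 47 sites, 28 were replicated at 6 h. Among these, 3 were replicated at 0 h as well, 4 had a peak in 0 h replicate 2 alone, and 21 had no 0 h peak. The remaining 19 sites were seen in a single library, 18 of them in 6 h replicate 2 and 1 in 6 h replicate 1. No site had a 0 h peak without a 6 h peak. Such a state was rare over all protein-coding genes too, counted within 50 kb of each gene. Peaks of 0 h replicate 2 alone were found at 7 genes (0.032%), and of both 0 h libraries alone at 1 gene (0.00457%). Replicated 6 h sites overlapped a 0 h peak in 7 of 28 cases, or 25%, against 16.5% of the 17190 such sites of the genome. The gene Zbtb16 held 4 of these 7. Summits of the 6 h replicates lay a median of 24.5 bp apart over the 28 sites. Inside the gene bodies lay 19 of the 28, of which 11 were those of Zbtb16, a long gene, and 8 were among the 17 of the other genes. Within 1 kb of a gene end lay 3 of the 28. Positions inside genes and near gene ends were not counted for the replicated 6 h sites of the genome, so whether these shares are usual was not tested.

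**Figure D2:**
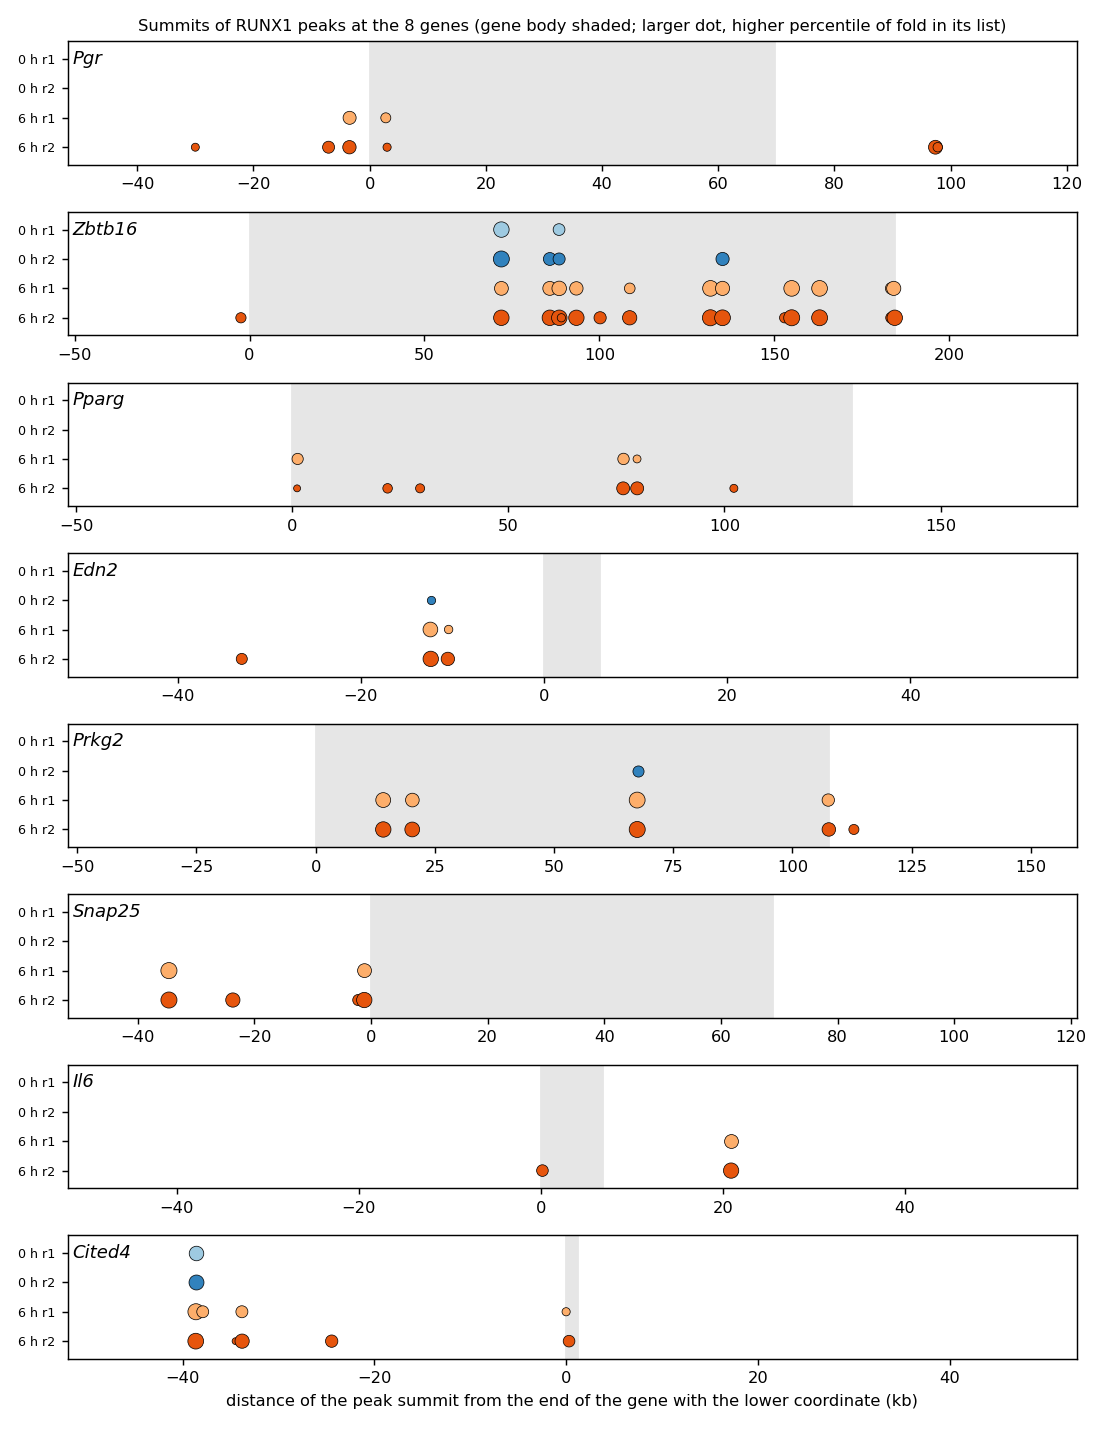
Position of peak summits at the 8 genes. The horizontal axis gives the distance in kb from the end of the gene with the lower coordinate, the shaded band is the gene body, each row of a panel is a library (r1 and r2 are replicates 1 and 2), and larger dots have a higher percentile of fold in their list. Sites of Zbtb16, Pparg and Prkg2 lie mostly inside the gene, and the leading sites of Edn2, Snap25, Il6 and Cited4 lie outside it.

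Pgr, the receptor itself, had 0 and 0 peaks in the 0 h libraries and 2 and 6 in the 6 h libraries. The groups did not overlap, but 4 of the 6 sites rested on 6 h replicate 2 alone. Its 2 replicated sites flanked the promoter printed above. The upstream site, chr9:8895282-8895558, lay 4415 bp before the RefSeq promoter start, with a fold of 9.73 and 13.1 in 6 h replicates 1 and 2 (percentiles 60.2 and 64.1) and a pileup of 40 reads in each. The other, chr9:8901283-8901949, lay 1844 bp after that start, inside the gene, with a fold of 6.97 and 6.98 (percentiles 29.7 and 15) and replicate summits 223 bp apart. Both were of middle or low rank, and only the upstream site passed a −log10 q of 20 in both libraries. Those seen in 6 h replicate 2 alone included chr9:8996103-8996465, with a fold of 14.4 (percentile 69.7), which lay beyond the far end of Pgr and inside the neighbouring gene Arhgap42.

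The protein-coding genes most like Pgr, by the distance over the 4 libraries between the highest percentiles of fold within 50 kb, were Amdhd1, Map2k3 and Adi1. Like Pgr they had no 0 h peak. Their highest percentiles lay between 59.6 and 60.6 in 6 h replicate 1 and between 69.1 and 70.3 in replicate 2, where those of Pgr were 60.2 and 69.7. Peaks in both 6 h libraries and in neither 0 h library were the pattern of 4 of the 8 genes (Pgr, Pparg, Snap25 and Il6) and of 40.6% of all protein-coding genes.

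Zbtb16, which encodes the zinc finger transcription factor PLZF, carried more RUNX1 sites than any of the other 7 genes. It had 2 and 4 peaks in the 0 h libraries and 12 and 15 in the 6 h libraries, so that the groups did not overlap. Its 11 replicated 6 h sites all had their summits inside the gene of 184429 bp and were spread over 112435 bp, with gaps of 1029 to 23083 bp between neighbouring summits. At least 11 replicated sites were found at 150 protein-coding genes, or 0.685%, and per 100 kb of window 11.7% of genes had as many as Zbtb16 or more, since the gene is long.

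Of these 11 sites, 2 were replicated at both time points. At chr9:48723088-48724387 the 0 h pileup was 47 and 63 reads and the 6 h pileup 99 and 177, so both 6 h libraries were higher. The 0 h lists gave a fold of 12.4 and 17.1 at the same summits, and those of 6 h gave 11.1 and 24.7. The local background here was 2.86 and 2.74 reads in the 0 h libraries but 8.04 and 6.21 in the 6 h libraries. This was the highest ranking 0 h peak at the 8 genes, at percentiles 90.2 and 97.8 of the 0 h lists. At chr9:48740073-48740695 the 0 h pileup was 44 and 41 reads and the 6 h pileup 94 and 128, again without overlap. A further 2 sites, chr9:48736348-48737886 and chr9:48786706-48787289, had a 0 h peak in replicate 2 alone, with a fold of 7.7 and 7.94.

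The sites of Zbtb16 with the highest fold at 6 h had no 0 h peak. The site chr9:48783311-48783788 had a fold of 20.5 and 47.6 in 6 h replicates 1 and 2, at percentiles 93.4 and 98.7. The site chr9:48805850-48807049 had 20.7 and 42.9 (percentiles 93.6 and 98.0), and chr9:48814524-48815033 had 21.3 and 37.7 (percentiles 94.0 and 96.9). These 3 stood above percentile 90 in both 6 h lists, and the others of the gene did not. A replicated site of 1343 bp, chr9:48835550-48836892, crossed the end of the gene with the higher coordinate and had a fold of 11.9 and 24.6.

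Pparg encodes a nuclear receptor that controls lipid metabolism. It had 0 and 0 peaks at 0 h and 3 and 6 at 6 h, without overlap. All of its sites ranked in the lower or middle part of the lists. The site that overlaps the promoter printed above, chr6:115361826-115362280, reached 7.82-fold in 6 h replicate 1 and 5.93-fold in replicate 2, at percentiles 41.0 and 6.79. The other 2 replicated sites lay inside the gene and downstream of the last promoter, at chr6:115437339-115437586 with 7.98 and 12.1 and at chr6:115440435-115440886 with 5.67 and 12.2. None of the 3 reached a −log10 q of 20 in both libraries.

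Cited4 encodes a coactivator that binds the histone acetyltransferases CBP and p300. It had 1 and 1 peaks at 0 h and 4 and 5 at 6 h. A site upstream, chr4:120627410-120628327, was the only site at the 8 genes outside Zbtb16 that was replicated at both time points. Its summit lay 38609 bp from Cited4, and the nearest protein-coding gene was Gm8439, at 18281 bp. The 0 h pileup there was 38 and 36 reads and the 6 h pileup 149 and 148, so the time points did not overlap and the replicates were close to each other. The fold was 10 and 10.1 in the 0 h lists (percentiles 78.5 and 83.8) and 35.6 and 31.5 in the 6 h lists (percentiles 99.0 and 94.7). At the promoter printed above, chr4:120666274-120667484 was found only at 6 h, with a low fold of 5.83 and 10.1 (percentiles 15.1 and 45.4) over 1211 bp, and its replicate summits lay 304 bp apart. The remaining replicated site, chr4:120632455-120633059, had 8.51 and 15.7 at 6 h and was also nearer to Gm8439, at 23096 bp. With peaks given only to the nearest protein-coding gene, Cited4 had 1 replicated 6 h site in place of 3.

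**Figure D3:**
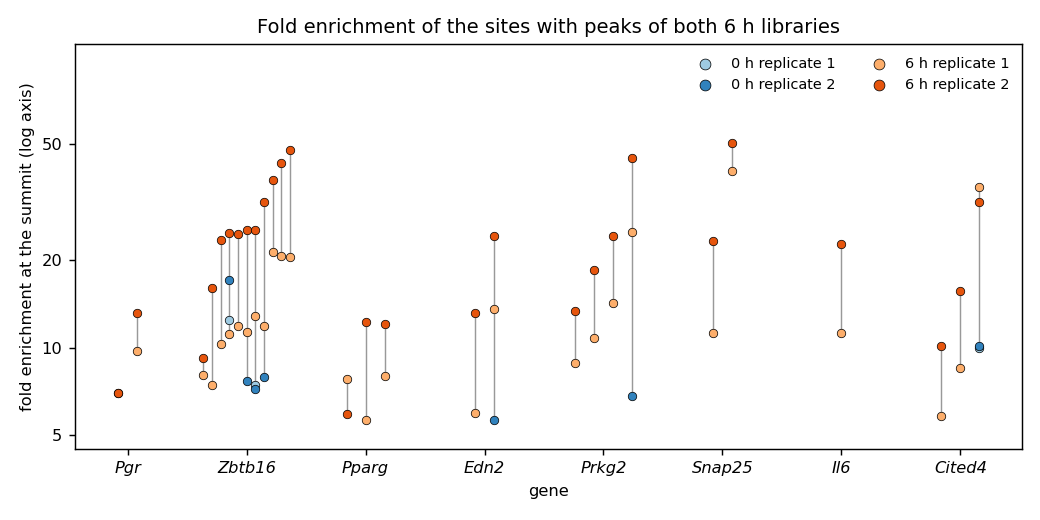
Fold enrichment at the summit (vertical axis, log scale) of the 28 sites with peaks of both 6 h libraries, by gene; points joined by a line are the libraries that had a peak at 1 site. The fold was higher in 6 h replicate 2 than in replicate 1 at 26 of the 28 sites, as was the median of the whole list (10.7 against 8.59), and the sites of Snap25, Zbtb16, Prkg2 and Cited4 reach the highest values.

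Edn2 encodes endothelin-2, a peptide that contracts smooth muscle and is made in the follicle near the time of rupture. It had 0 and 1 peaks at 0 h and 2 and 3 at 6 h. Its main site, chr4:120148500-120149396, lay 12357 bp upstream, with a pileup of 36 reads in 0 h replicate 2 and 155 and 218 reads in the 6 h replicates. The fold was 5.67 at 0 h, near the low end of that list (percentile 16.2), and 13.6 and 24.1 at 6 h (percentiles 80.8 and 89.9). The summit was closer to the coding gene Hivep3, at 10804 bp, than to Edn2. The second replicated site, chr4:120150406-120151257, lay 10489 bp upstream with 5.99 and 13.1 at 6 h. No peak overlapped the Edn2 promoter printed above, the window that holds the RUNX letters.

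Prkg2 encodes the membrane-bound cGMP-dependent protein kinase. It had 0 and 1 peaks at 0 h and 4 and 5 at 6 h, without overlap. The leading site, chr5:98996770-98997527, lay inside the gene and had a fold of 24.9 and 44.6 at 6 h (percentiles 96.3 and 98.3). In 0 h replicate 2 the pileup at this site was 24 reads with a fold of 6.84 (percentile 40), against 124 and 182 reads at 6 h. The sites chr5:98943776-98944139 and chr5:98949832-98950345, also inside the gene, had 14.2 and 24.1 and then 10.8 and 18.4. A site at the end of the gene with the higher coordinate, chr5:99037120-99037510, had 8.88 and 13.4, with its summit 21 bp from that end. All 4 passed a −log10 q of 20 in both 6 h libraries.

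Snap25 encodes a membrane protein of the SNARE complex that drives exocytosis. It had 0 and 0 peaks at 0 h and 2 and 4 at 6 h. The site chr2:136678223-136680343 was the strongest of all sites at the 8 genes by mean fold, with 40.5 and 50.3 in 6 h replicates 1 and 2, at percentiles 99.5 and 99.0. It was 2121 bp wide, with a pileup of 235 and 268 reads and summits 3 bp apart. Neither 0 h library had a peak there. The site lay 34621 bp outside the gene, and no other protein-coding gene was nearer. The second replicated site, chr2:136712115-136712571, lay 1140 bp outside the same end of the gene, with 11.2 and 23.3.

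Il6 encodes the cytokine interleukin-6, which cumulus and granulosa cells make around ovulation. It had 0 and 0 peaks at 0 h and 1 and 2 at 6 h, the fewest of the 8 genes. The replicated site, chr5:30033753-30034196, lay 14031 bp beyond the far end of Il6 and closer to Tyms, at 4540 bp, with a fold of 11.2 and 22.7. Next to the promoter printed above, 6 h replicate 2 alone had a peak, chr5:30013181-30013422, with its summit 167 bp after the start and a fold of 10 (percentile 45.0). Replicate 1 had no peak there, so no replicated site lay within 10 kb of Il6, nor of Edn2.

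The 7 sites with peaks at both time points were compared by the pileup divided by the genome-wide background of the same library, which takes out the reads used but not the enrichment of the ChIP. At Zbtb16, the site at chr9:48723088-48724387 had 17.0 and 23.8 at 0 h and 35.9 and 83.1 at 6 h. At Cited4 the upstream site had 13.7 and 13.6 at 0 h and 54.0 and 69.5 at 6 h. At Edn2 the value was 13.6 in 0 h replicate 2 and 56.2 and 102 at 6 h, and at Prkg2 it was 9.06 and then 44.9 and 85.4. In 7 of the 7 sites the lower 6 h library exceeded the higher 0 h library, by 1.51 times at the least and 4.96 times at the most. The same held for 95.9% of the 2835 sites of the genome with such peaks, where the median was 2.65 times (quartiles 1.89 and 3.51). These 7 sites thus had the direction of nearly all such sites.

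**Figure D4:**
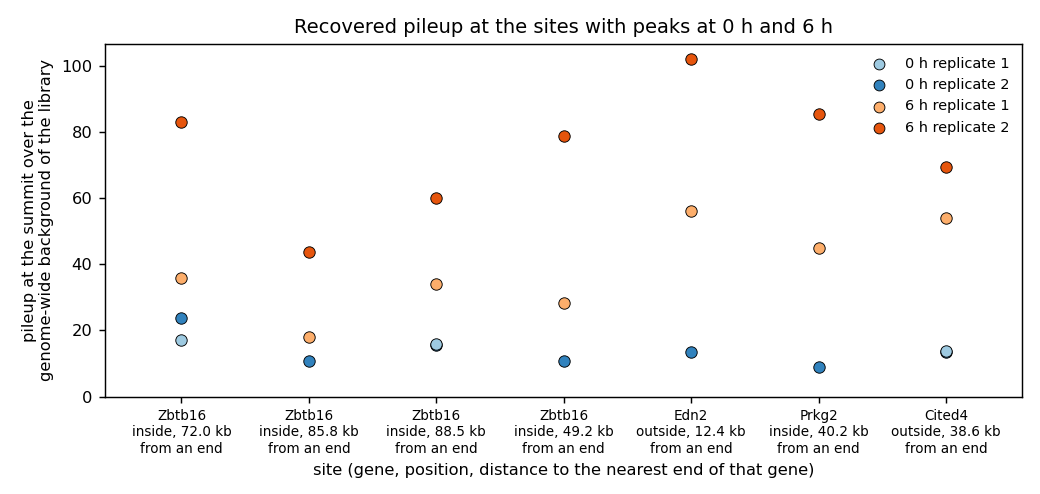
Pileup at the summit divided by the genome-wide background of the library (vertical axis) at the 7 sites with peaks at 0 h and 6 h (horizontal axis); each point is 1 library. At every site shown, both 6 h points lie above the 0 h points, and at Edn2, Prkg2 and 2 of the sites of Zbtb16 only 0 h replicate 2 had a peak.

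Rank rather than number was compared by keeping from each list its top 948 peaks by p-value. The 8 genes then had 3 and 2 peaks at 0 h and 4 and 5 at 6 h. On the log2 scale the difference was 0.661 (exact permutation test, two-sided, p = 0.333), against 2.75 with the full lists. In the 6 h lists these were peaks of Snap25, Prkg2 and Zbtb16 in both libraries, of Cited4 in replicate 1 and of Edn2 in replicate 2. At 0 h they were peaks of Zbtb16 and Cited4. Pgr, Pparg and Il6 had no peak among the top 948 of any library. For 0 h replicate 1 the top 948 are its whole list, which reached 9.43% of all protein-coding genes, so lacking such a peak was usual. That share was not counted for the top 948 of the other libraries, so whether having or lacking one is usual was not tested there. The lowest −log10 p kept was 9.01 and 25.7 in the 0 h replicates, against 132 and 204 in those of 6 h.

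The wider progesterone pathway was described with 25 further genes. Of these 24 had a replicated 6 h site within 50 kb, against 68.8% of all protein-coding genes, and 2 had a replicated 0 h site, against 8.76%. The 10 co-chaperones and coregulators, which fold the receptor or relay its activity, all had a replicated 6 h site, with a median of 4.5 sites against 2 for all protein-coding genes. Their windows were longer, with 2.79 replicated sites per 100 kb against 1.44. They included both genes with a replicated 0 h site, Fkbp5 and Ncoa3. Neither had such a 0 h site within 10 kb, or with peaks given only to the nearest protein-coding gene. Fkbp5, a co-chaperone of steroid receptors, had 2 and 3 peaks at 0 h and 16 and 20 at 6 h. Its 13 replicated 6 h sites were more than the 11 of Zbtb16, and 54 protein-coding genes, or 0.247%, had as many or more. Ncoa3, a steroid receptor coactivator, had 2 replicated 0 h sites and 5 at 6 h.

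The 5 membrane progesterone receptor genes, of the Pgrmc and Paqr families, had between 1 and 6 replicated sites at 6 h. All 5 had no 0 h peak, a state found with a replicated 6 h site at 40.3% of all genes. Of 10 other genes active in ovulation, 9 had a replicated 6 h site, against 68.8% of all genes, and 0 had a replicated 0 h site, against 8.76%. The exception was Areg, which encodes the EGF-like ligand amphiregulin and had no peak in any library. Among pathway genes with a replicated site at 6 h and none at 0 h, the percentile of the highest fold in the window, averaged over the 6 h libraries, was greatest for the protease gene Ctsl with 97.4, followed by 96.5 for the coactivator gene Ncoa2. Next came Paqr8 with 94.9, the metalloprotease gene Adam8 with 94.8 and the chemokine receptor gene Cxcr4 with 92.5. Of these 5, Ncoa2, Adam8 and Cxcr4 had a peak in 0 h replicate 2. Pgr itself stood at 65.0 by the same measure, which in replicate 2 rested on the peak inside Arhgap42.

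**Figure D5:**
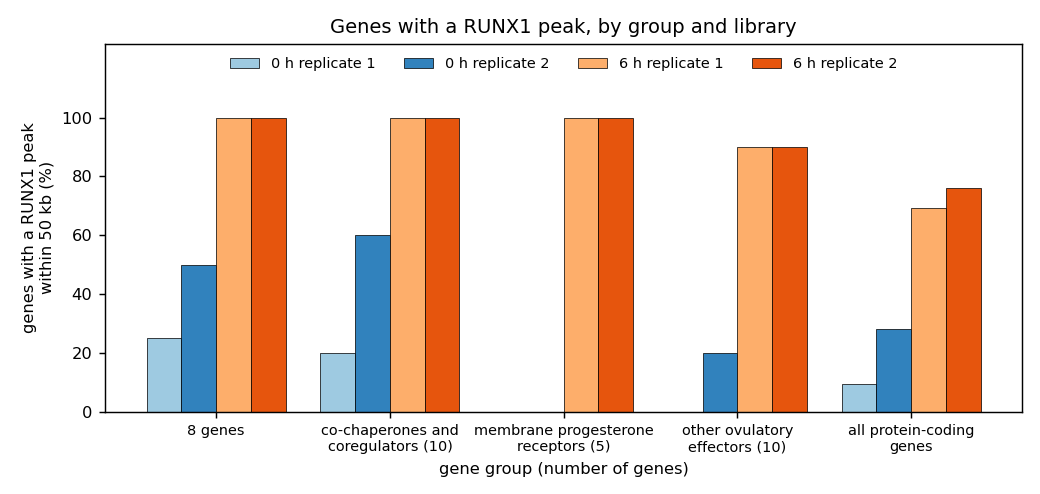
Share of genes with a RUNX1 peak inside or within 50 kb (vertical axis, %) in each library, for the 8 genes, the 3 groups of pathway genes and all protein-coding genes. In every group both 6 h bars stand above both 0 h bars, as they do over all protein-coding genes.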

How the data were processed

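RUNX1 ChIP-seq libraries of granulosa cells (2 at 0 h and 2 at 6 h after hCG) gave single-end reads of 75 nt, per the labels' protocols. Bowtie2 2.2.5, MACS2 and mm10 are named in the submitters' processing notes, and settings and filters are not given in the sources used here. Per the series design and the peak names, the authors called peaks for each library against an input pooled within the time point. The deposited lists give the fold enrichment at the summit, a −log10 p-value, a −log10 q-value, and a score equal to 10 times the −log10 p, rounded down, that was not used. The lowest −log10 p was 9.01 to 9.18 in the deposited lists.

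Gene bodies and promoter sequences came from RefSeq on GRCm38.p6, the assembly that mm10 names, and coordinates count from 1. Replicated sites needed an overlap of at least 1 bp. Pileup and background were recovered by solving fold (pseudocount of 1) and Poisson p together. For 100% of peaks an integer pileup met both within a misfit of 0.005. The counting and this step were tested on simulated data. Differences between time points were tested across the 4 libraries by exact permutation, two-sided, in Python 3.11.15. No test was made over genes or sites. The 8 genes and the pathway list were chosen with earlier results of these data known. All 8 were described with every replicated site. Pathway genes were named where replicated at 0 h, where among the 5 with the greatest highest percentile of fold, averaged over the 6 h libraries, of those replicated at 6 h but not at 0 h, or where without a site. The 3 genes nearest to Pgr by percentile were also named. The motif search used promoter windows, since the genome sequence was not used here. Alternatives were the distance, the nearest gene, a −log10 q of at least 20, equal peak numbers, summits within 100 bp, leaving out each library and a replicate block.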

Additional observations from a re-analysis of the deposited data

How the results depend on the processing

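The higher peak number at 6 h kept its direction in every alternative run, from 0.661 with equal numbers of peaks to 3.25 without 0 h replicate 2 on the log2 scale. It lay between 2.25 and 3.25 when each library was left out. The labels do not say that replicate numbers pair the libraries. With a replicate block over the 2 pairs the difference was 2.75 and the share −0.11 (exact sign-flip p = 0.5, the smallest 2 pairs can give), and the deviations of same-numbered libraries correlated at −0.149 over 16702 genes. The share of peaks at the 8 genes, −0.11 percentage points, turned to 0.211 with equal numbers of peaks and to 0.00144 without Zbtb16. It was −0.311 with a −log10 q of at least 20, −0.0664 within 10 kb and −0.0523 by nearest gene, and ran from −0.156 to −0.0631 when each library was left out. With equal numbers of peaks, 3 of the 8 genes and 2 of the 25 pathway genes had a replicated 6 h site, and the 8 genes had 3 sites. At 0 h that setting gave 2 of the 8 genes, 2 of the 25 pathway genes and 2 sites. The share of all protein-coding genes with a replicated site was not counted with equal numbers of peaks. The 28 replicated 6 h sites became 17 without Zbtb16 and 28 to 46 when each library was left out, where a peak in the remaining library of a time point sufficed, highest without 6 h replicate 1. At 0 h, 1 of the 8 genes had a replicated site within 10 kb, by nearest gene or without Zbtb16, which left 1 site. These counts ran from 2 to 4 genes and from 3 to 7 sites when each library was left out, highest without 0 h replicate 1. Pathway genes with a 0 h site numbered 0 within 10 kb, 0 by nearest gene, 1 with a −log10 q of at least 20 and 2 to 8 when each library was left out. No 0 h share of all protein-coding genes was counted within 10 kb, by nearest gene or with a −log10 q of at least 20. Of the values for single genes, 20 of 40 stayed within 1.5 times. The setting without Zbtb16 was chosen after seeing the data. Fewer peaks or fewer genes enter under some of these settings, and leaving out a library relaxes the rule for a replicated site. Within 100 kb more peaks enter, and replicated 6 h sites rose from 1 to 3 at Il6 and from 3 to 5 at Cited4. The cause of other changes was not tested. At the genome-wide background, sites under 18 and 17 reads were not callable in 0 h replicates 1 and 2, and those under 18 and 16 reads in 6 h replicates 1 and 2.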
